A study of Mus musculus with 12 samples.

Results

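Non-insulin autoantigens of type 1 diabetes are the subject here: 9 genes (Ptprn, Ptprn2, Gad1, Gad2, Slc30a8, Tspan7, Ica1, Hspd1 and Mrps31) whose products are bound by autoantibodies or recognised by T cells in patients or in NOD mice. All non-control probes whose accession maps to one of these symbols were taken, which gave 14 of the 41174 non-control probes on the array. No measured value was used to filter these probes, but the genes were chosen with earlier results of these data known. Islets were cut by laser from frozen, stained pancreas sections of 8 μm, with sections of at least 40 islets per mouse, and their amplified RNA was labelled with Cy5. It was hybridised with a Cy3-labelled universal mouse RNA, the common reference, on 2-colour Agilent whole-genome arrays, 1 array per mouse and without dye swap. The 6 mice of strain NOD, which develops autoimmune diabetes, were compared with 6 of strain NOD.B10, which shares the NOD background but not its MHC haplotype and does not become diabetic. All 12 mice were female and 12 weeks old, and the labels name no treatment. The comparison asks whether the islet transcripts of the autoantigens differ between the diabetes-prone strain and its control.

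In type 1 diabetes the immune system attacks the beta cells of the islets, and antibodies against islet proteins appear in the blood long before the disease. Most of the proteins they bind belong to the route by which a beta cell packs and releases insulin: membrane proteins of the dense-core secretory granule, a zinc transporter that fills it, and proteins of the Golgi and of the small vesicles that hold GABA. Others are mitochondrial proteins found in every cell, such as the chaperonin Hspd1, a peptide of which is a well-studied T cell target in NOD mice. Neurons share many of the granule proteins with islet cells.

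The islet channel was dim, brighter in NOD, and on 1 slide measured against a reference that read differently. Cy5 was well above background on 10.7 to 17.3% of spots in NOD and on 3.96 to 7.88% in NOD.B10, and 95.8% of the 5347 tested probes had a higher unscaled mean Cy5 signal in NOD. Ins2 and Gcg, the insulin and glucagon genes that define beta and alpha cells, were well above background on all 12 arrays. Slide 1 holds NOD replicates 1 and 2 only, while slides 2 and 3 hold mice of both strains. Slide 4 holds NOD.B10 replicates 2 and 3 only and was scanned on another day than the 3 other slides. Its Cy3 signal was at least 2-fold above the mean of the 10 other arrays for 1076 of 16345 probes detected in Cy3 on every array, and at most 0.5 of it for 1590, against at most 18 and 251 on any of the 3 other slides. Strain differences of the autoantigens are therefore given with all arrays and without slide 4. The values without slide 4 still include slide 1, so slide and strain remain partly confounded in them. The smallest possible exact permutation p for 6 against 6 arrays is 0.00216. Precision here is limited by how few arrays there are and how dim Cy5 was. Each array holds 1 numbered sample, and p-values measure the spread between these samples. In bulk islet RNA fewer cells of a type and less RNA per cell cannot be told apart.

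Most of the autoantigen probes did not read the islets above background. Of the 14 probes, 8 were well above background in Cy5 on no array, and for 4 genes (Ptprn, Ptprn2, Gad2 and Slc30a8) this held for every probe. The filter for testing (Cy5 well above background on at least 4 of 12 arrays) was passed by 5 of the 14 probes, from 5 genes. Of all 41174 non-control probes 5347 passed it, a smaller share. For the 4 genes read on no array these data say nothing about a strain difference.

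**Figure D1:**
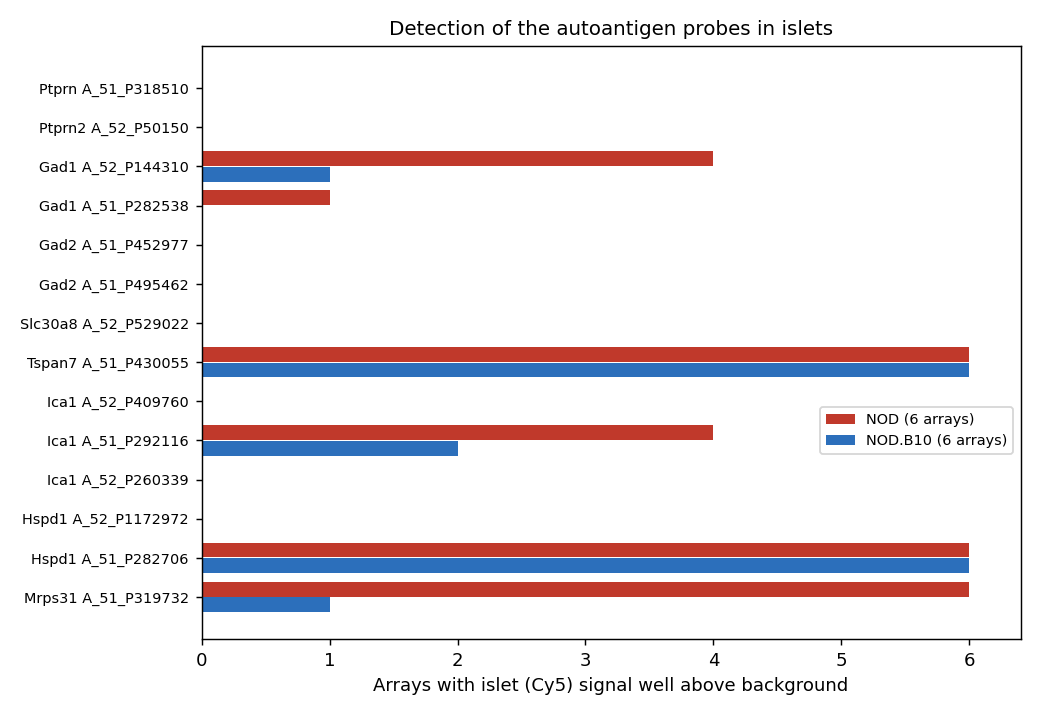
Number of arrays, of 6 per strain, on which the islet (Cy5) signal of each of the 14 autoantigen probes was well above background. Tspan7 and 1 Hspd1 probe were read on all 6 arrays of both strains, Mrps31 on 6 NOD arrays and 1 NOD.B10 array, and 8 probes on none.

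The granule membrane proteins come first. Ptprn (IA-2) and Ptprn2 (phogrin) are receptor-type tyrosine phosphatase family members without usual phosphatase activity that sit in the dense-core granule membrane. Ptprn lies at chr1:75247035-75264497 and Ptprn2 at chr12:116485695-117278167 (GRCm38.p6). The Ptprn probe gave net Cy5 signals (spot minus local background, in scanner units) of -3 to 1 in NOD and of -3 to 7 in NOD.B10. The Ptprn2 probe gave -3.5 to 4 and -3 to 3. The reference channel did not read them either, with a median net Cy3 of 5 and 2, and only 1 array had Ptprn well above background in Cy3. Slc30a8, the zinc transporter ZnT8 that loads zinc into insulin granules (chr15:52295553-52335798), read 2.5 to 6 in NOD and -4 to 5.5 in NOD.B10, with Cy3 well above background on 0 of 12 arrays. Both channels of these 3 probes thus lay at the level of the local background, and the ranges of the strains overlap.

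The glutamate decarboxylases make the transmitter GABA from glutamate. Gad2 (GAD65, chr2:22621015-22693877) is the form bound by most patients' antibodies. Its 2 probes were well above background on no array in Cy5, with net signals of -3 to 10 over both strains, while Cy3 read them on 11 and 12 arrays. Gad1 (GAD67, chr2:70561303-70602014) has 2 probes, of which A_52_P144310 passed the filter. Its net Cy5 was 13, 13, 18, 0, 6 and 14 in NOD replicates 1 to 6, and 8, 4.5, 3, 10, 2.5 and 9 in NOD.B10 replicates 1 to 6. Of these, 4 NOD arrays and 1 NOD.B10 array were well above background, and the strains overlap. The log2 ratio of Cy5 to Cy3 after normalisation averaged 0.11 ± 0.24 over NOD mice and 0.16 ± 0.16 over NOD.B10 mice (SD, n = 6 each). The difference, NOD minus NOD.B10, was -0.05 ± 0.13 (SE), with a 95% interval of -0.32 to 0.22 (limma adjusted p = 0.778), and -0.12 without slide 4 (limma adjusted p = 0.607). The second Gad1 probe, A_51_P282538, was well above background on 1 NOD array (replicate 3) and no NOD.B10 array, and did not pass the filter. Its log2 difference had the opposite sign, 0.12, with net Cy5 medians of 9.5 in NOD and 3.75 in NOD.B10. No Gad1 difference was detectable at these signals, and the interval of the tested probe leaves room for changes either way.

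Ica1 (ICA69) is a BAR domain protein of the Golgi that takes part in the budding of granules (chr6:8630527-8778540). Of its 3 probes, A_51_P292116 passed the filter, and the others read neither channel above background on any array. Its net Cy5 was 18, 10, 9, 3, 1.5 and 11.5 in NOD replicates 1 to 6, and 9, 18, 12, 9, 9 and 8 in NOD.B10 replicates 1 to 6. The lowest values were those of NOD replicates 4 and 5, and the strains overlap. The log2 ratio averaged 0.18 ± 0.22 over NOD mice and 0.39 ± 0.12 over NOD.B10 mice (SD, n = 6 each). The difference of -0.20 ± 0.11 (SE, 95% interval -0.45 to 0.04) did not pass the test (limma adjusted p = 0.179), nor did -0.14 without slide 4 (limma adjusted p = 0.464). On slide 4 the reference signal of this probe was 348 and 364.5, against 107 to 162.5 on the 10 other arrays. With Cy5 alone, quantile normalised, the difference was -0.31 and passed (limma adjusted p = 0.00734). With processed ratios from the scanner software it was -1.26 ± 0.55 (SE, limma adjusted p = 0.0861).

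Of the 5 tested probes, 3 were lower in NOD and 0 higher with limma at an adjusted p under 0.05 (also 3 and 0 at an unadjusted p under 0.05). Over all 5347 tested probes 16.4% were lower and 20% higher. For 0 of the 5 did every NOD mouse lie below every NOD.B10 mouse in the log2 ratio, against 6.7% of all tested probes. The 3 are Tspan7, Hspd1 and Mrps31. Without slide 4 only Tspan7 passed, and with median centring in place of loess none was lower (0 also at an unadjusted p under 0.05) and Hspd1 was higher.

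Tspan7, a tetraspanin of the granule membrane that is a target of autoantibodies in patients, showed the largest difference of the 5 (probe A_51_P430055, gene at chrX:10485116-10596604, GRCm38.p6). Its net Cy5 was well above background on all 12 arrays, at 48, 42, 68.5, 31, 29 and 23.5 in NOD replicates 1 to 6 and at 40, 24, 30, 42, 32.5 and 26 in NOD.B10 replicates 1 to 6. On this unscaled signal the strains overlap (exact 2-sided permutation p = 0.335, and 0.419 adjusted over the 5 tested probes). After normalisation the log2 ratio was -0.17, -0.41, 0.70, -0.12, 0.13 and -0.59 in NOD, and 0.90, 0.52, 0.73, 1.04, 0.62 and 0.71 in NOD.B10. All NOD mice but replicate 3 lay below every NOD.B10 mouse. The size of the Tspan7 difference depends on the offset of 50 used in that normalisation. In this fit Tspan7 was 1.78-fold lower in NOD, by log2 -0.83 ± 0.19 (SE, n = 6 per strain, 95% interval -1.24 to -0.42, limma adjusted p = 0.00449), and by -0.89 without slide 4 (limma adjusted p = 0.0154). Within slides 2 and 3, which hold 2 mice of each strain, it was -0.68 and -0.89, with neither passing (limma adjusted p = 0.351 and 0.316). With median centring it was 0.10, which is -0.33 relative to the median difference of 0.42 over the tested probes there. It was -1.80 with the net ratio of probes bright on all arrays (limma adjusted p = 0.000315), -1.57 with processed ratios (limma adjusted p = 0.00343) and -0.63 with Cy5 alone (limma adjusted p = 0.00316). With the share of bright spots as a covariate it was -0.09 ± 0.38 (SE, limma adjusted p = 0.973), but this share does not overlap between the strains, so brightness and strain cannot be told apart in that fit.

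The bases before the annotated Tspan7 start (chrX:10484866-10485115, plus strand, GRCm38.p6, from RefSeq) are shown because it is the member with the largest difference. Capitals mark the GC box GGGCGG, the binding motif of Sp-type factors, on either strand:

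Tspan7: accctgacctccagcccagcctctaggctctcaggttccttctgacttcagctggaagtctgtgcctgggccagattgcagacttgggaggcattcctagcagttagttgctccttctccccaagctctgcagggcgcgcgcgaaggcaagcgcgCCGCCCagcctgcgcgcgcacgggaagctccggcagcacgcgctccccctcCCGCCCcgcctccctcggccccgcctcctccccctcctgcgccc

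The full window of 300 bases, which runs 50 bases past the start, holds 4 such matches and no TATAAA. The GC box is found in 35.7% of all 32851 RefSeq promoter windows of this length and in 7 of the 11 windows of the autoantigen genes, which cover 8 of the 9 genes.

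**Figure D2:**
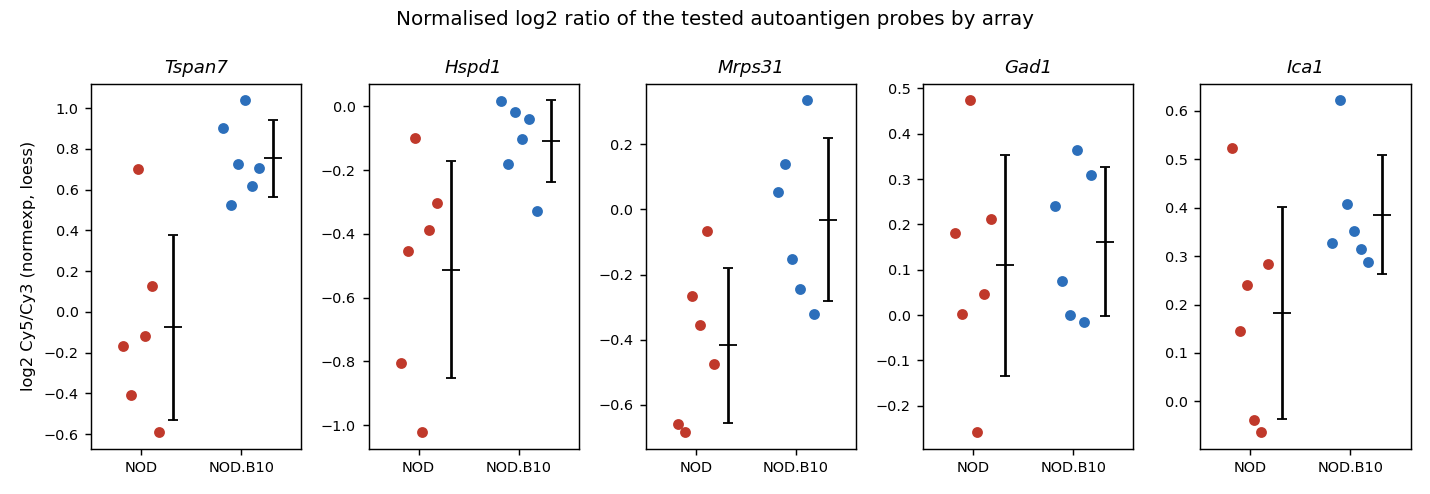
Normalised log2 ratio of Cy5 to Cy3 for the 5 tested probes, 1 point per mouse (6 NOD, 6 NOD.B10), with mean and SD beside the points and a separate axis for each gene. The strains overlap for all 5 genes, and for Tspan7 only NOD replicate 3 lies within the NOD.B10 range.

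The mitochondrial members are Hspd1 and Mrps31. Hspd1 (HSP60), the chaperonin that folds proteins in the mitochondrial matrix, was read by probe A_51_P282706 on all 12 arrays (gene at chr1:55077833-55088243). Its net Cy5 was 100.5, 200, 92, 47, 50.5 and 116.5 in NOD replicates 1 to 6, and 32.5, 25, 25.5, 22.5, 37 and 9 in NOD.B10 replicates 1 to 6. Every NOD mouse was above every NOD.B10 mouse (exact 2-sided permutation p = 0.00216, the smallest possible, and 0.0108 adjusted over the 5 tested probes), as for 39.1% of all tested probes on the unscaled signal. After loess normalisation, which removes the overall brightness as a function of spot intensity, the strain means stood in the opposite order. The log2 ratio was then -0.81, -0.45, -0.10, -1.02, -0.39 and -0.30 in NOD, and 0.02, -0.18, -0.02, -0.10, -0.04 and -0.33 in NOD.B10. The difference was -0.40 ± 0.15 (SE, n = 6 per strain, 95% interval -0.72 to -0.09, limma adjusted p = 0.0467). It was 0.95 with median centring (limma adjusted p = 0.00226), which is 0.53 relative to the median difference of the tested probes, and 0.07 with Cy5 alone. It was -0.10 with processed ratios (limma adjusted p = 0.804, -0.65 relative to the median there). With the net ratio of probes bright on all arrays it was -0.03 (limma adjusted p = 0.934, 0.33 relative to the median there). Without slide 4 it was -0.40 and did not pass (limma adjusted p = 0.123), and it was -0.52 within slide 2 and -0.16 within slide 3. The second Hspd1 probe, A_52_P1172972, was well above background in Cy5 on no array.

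**Figure D3:**
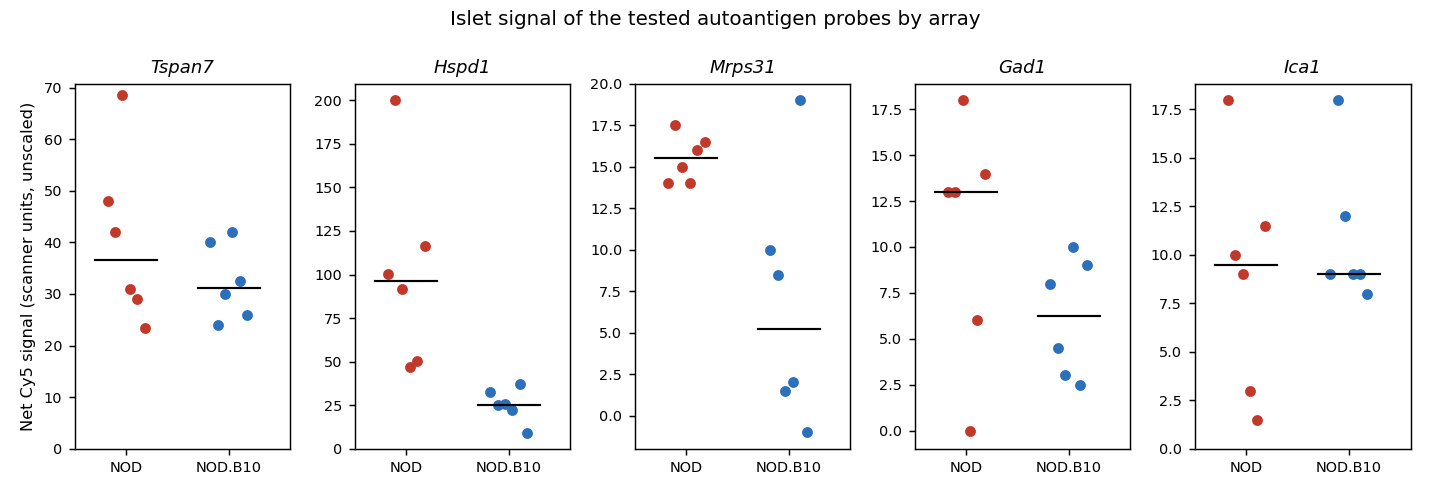
Unscaled net Cy5 signal (scanner units) of the 5 tested probes, 1 point per mouse, with the strain median as a line and a separate axis for each gene. Hspd1 was 47 to 200 in NOD and 9 to 37 in NOD.B10, while Tspan7 overlapped between strains.

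Hspd1 shares its upstream region with Hspe1, which encodes its co-chaperonin and is read in the opposite direction. The stretch between an annotated Hspd1 start and the Hspe1 start (chr1:55087933-55088147, shown on the minus strand, GRCm38.p6, from RefSeq) is printed because both genes were measured. A further annotated Hspd1 start lies beyond it, so it falls inside the longer Hspd1 gene model. Capitals mark TTCNNGAA, the core of a heat shock element:

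Hspd1: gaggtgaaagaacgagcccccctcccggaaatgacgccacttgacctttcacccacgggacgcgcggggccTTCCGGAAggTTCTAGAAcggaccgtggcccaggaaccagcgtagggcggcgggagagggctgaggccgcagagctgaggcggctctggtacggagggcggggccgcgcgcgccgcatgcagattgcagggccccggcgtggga

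This stretch holds 2 matches, and 8.52% of all RefSeq promoter windows hold at least 1, against 1 of the 11 windows of the autoantigen genes. Hspe1 differed by 0.15 ± 0.16 (SE, n = 6 per strain, limma adjusted p = 0.488), and by 0.14 without slide 4, with net Cy5 medians of 95.8 in NOD and 16 in NOD.B10. The difference between Hspd1 and Hspe1 was not tested.

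Mrps31 (Imogen38), a protein of the small subunit of the mitochondrial ribosome (chr8:22410449-22429669), was well above background on 6 NOD arrays and on NOD.B10 replicate 5 only. Its net Cy5 was 14, 17.5, 15, 14, 16 and 16.5 in NOD replicates 1 to 6, and 10, 8.5, 1.5, 2, 19 and -1 in NOD.B10 replicates 1 to 6. NOD mice lay close together, and the highest single value was that of a NOD.B10 mouse (exact 2-sided permutation p = 0.0216, and 0.0541 adjusted over the 5 tested probes). The probe passed the Cy5 filter only through its NOD arrays, so this p cannot count as support for a higher NOD signal. The log2 ratio was -0.66, -0.68, -0.27, -0.36, -0.07 and -0.48 in NOD and 0.05, 0.14, -0.15, -0.24, 0.33 and -0.32 in NOD.B10. The difference of -0.39 ± 0.14 (SE, 95% interval -0.69 to -0.08, limma adjusted p = 0.0477) compares NOD with signals mostly at background, so no fold is given. It was -0.37 without slide 4 (limma adjusted p = 0.126), on which Cy3 read 668 and 730.5 against 763.5 to 1284.5 elsewhere, and -0.22 within slide 2 and -0.28 within slide 3. With median centring it was 0.05, with Cy5 alone 0.03 and with processed ratios from the scanner software 0.13. Relative to the median difference of the tested probes in each, these were -0.37, -0.07 and -0.42, beside -0.40 in the loess fit.

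**Figure D4:**
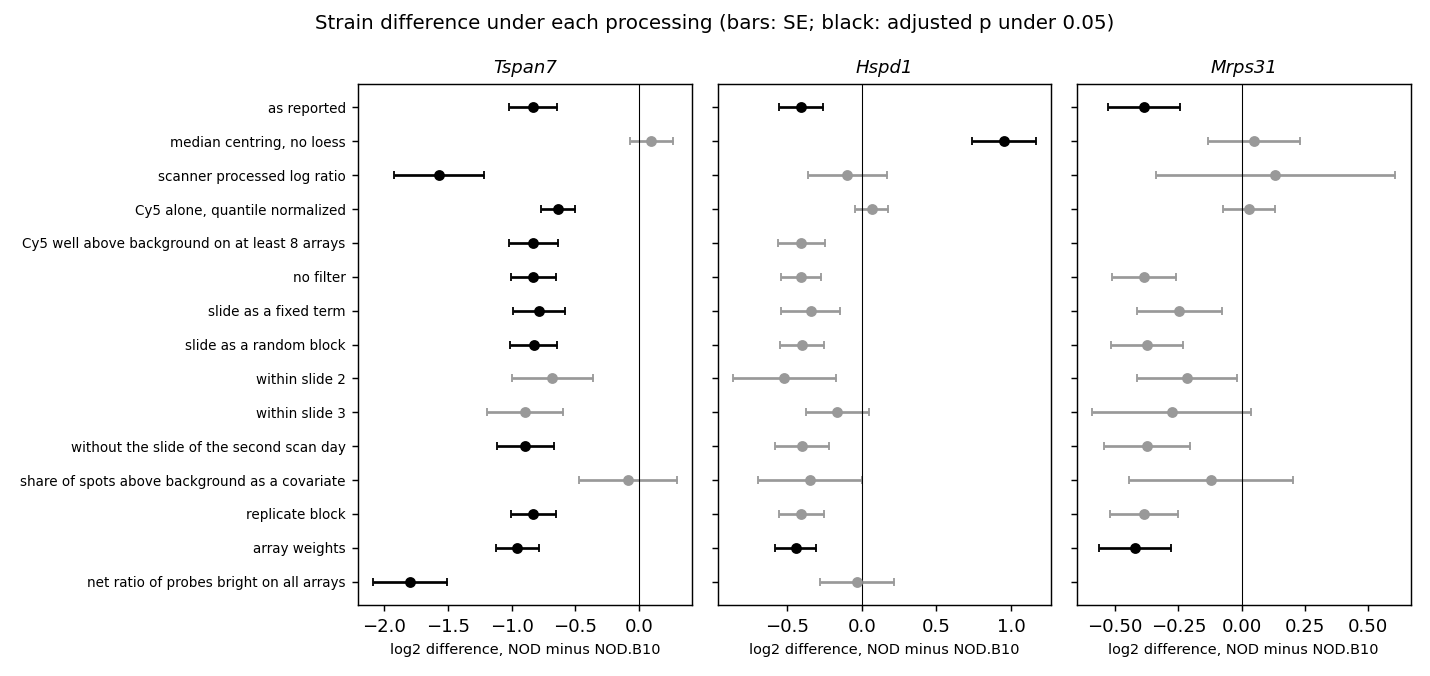
Strain difference (log2, NOD minus NOD.B10, bars SE) of Tspan7, Hspd1 and Mrps31 under each way of processing the arrays, with an axis per gene. Tspan7 runs from -1.80 to 0.10, and black points mark an adjusted p under 0.05; Hspd1 reaches 0.95 with median centring.

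The 5 tested probes were far brighter in the reference than in the islets, most of all those of the 3 lower calls. Mean net Cy5 was 0.562% of mean net Cy3 for Hspd1, 1.06% for Mrps31 and 2.14% for Tspan7, against 3.19% for Gad1 and 5.73% for Ica1 and a median of 2.17% over all tested probes. Among the 938 tested probes under 1%, 68.6% were called lower, and 0.32% higher, and among the 3507 under 3%, 24.2% lower and 8.33% higher. The part of the reference brightness in the 3 calls was not tested.

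Summed marker signals were higher in NOD for leukocytes and mesenchymal cells, while for the other cell types the ranges of the strains overlapped. Leukocyte markers (12 of 16 well above background on some array, not Cd3e, Cd3g, Cd79a or Itgam) summed to 0.36 to 1.24% of an array's net Cy5 in NOD and to 0.021 to 0.0449% in NOD.B10. Ptprc, the pan-leukocyte antigen, was well above background on 6 NOD arrays and 0 NOD.B10 arrays, so no fold is given. Its log2 difference was 4.09 (limma adjusted p = 1.08e-05), 2.54 with Cy5 alone and 6.52 with processed ratios. With the share of bright spots as a covariate it was 2.31 (limma adjusted p = 0.294). Beta cell markers (6 of 10, with Mafa, Pdx1 and Ucn3 among those not read) summed to 0.86 to 6.78% and 4.05 to 8.45%. Acinar markers (9 of 9 with a probe) summed to 0.0327 to 0.585% and 0.0388 to 1.52%, and Cpb1, a digestive carboxypeptidase of acinar cells, differed by log2 -3.48 (limma adjusted p = 0.0304), by -4.56 without slide 4, by -0.69 with median centring (limma adjusted p = 0.373) and by -1.74 with Cy5 alone (limma adjusted p = 0.056). The Cpb1 call was lost without NOD replicate 1, 2 or 6 or NOD.B10 replicate 4 (-3.98 to -2.51 with 1 mouse left out). Alpha cell markers (3 of 5, with Irx2 among those not read) summed to 3.06 to 5.30% and 2.69 to 6.51%, with Gcg at log2 -1.19 (limma adjusted p = 0.0278) but 1.21 with median centring, and no call without NOD replicate 1 or 2 or NOD.B10 replicate 5 or 6 (-1.40 to -0.91 with 1 mouse left out). Mesenchymal markers (6 of 6) summed to 0.111 to 0.251% and 0.0385 to 0.0982%. In the limma fit of 1 probe per gene, however, 1 of these 6 was higher in NOD, 1 lower and 4 not called. Endothelial markers (2 of 5, not Pecam1, Cdh5 or Esam) summed to 0.0333 to 0.101% and 0.0321 to 0.876%. Delta cell markers (2 of 2) summed to 0.320 to 0.897% and 0.288 to 0.792%, and the PP cell marker Ppy read 0.000763 to 0.00212% and 0.000822 to 0.0116%. Of 7 nerve and Schwann cell markers with a probe 1 was read above background, and of 4 duct markers 0. The part of cell composition in the autoantigen values was not tested.

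Related genes were followed in lists, with 1 probe per gene, where 18% of 3922 genes were lower, 18.7% higher and the median difference was -0.01. Adjusted p-values of named genes are over all 5347 probes. The 5 tested autoantigens had a median of -0.39. Of 14 other autoantigens 7 were tested and 3 were lower, with a median of -1.53: Ins2 (log2 -3.35 ± 0.56, SE), the granule protein Chga (-2.56 ± 0.46) and Ins1 (-1.75 ± 0.62). Without slide 4, 2 of these 7 were lower, as Ins1 did not pass (limma adjusted p = 0.0522). Of 26 genes of granule exocytosis 6 were tested and 3 were lower, among them the synaptotagmin Syt13 (-1.27 ± 0.46) and the vesicle GTPase Rab3a (-0.48 ± 0.18). The list median was -0.67, and without slide 4 1 gene was lower, while Syt13 and Rab3a did not pass (limma adjusted p = 0.118 and 0.133). Of 12 granins and granule cargo genes 9 were tested and 3 were lower, Chga, the prohormone convertase Pcsk2 (-1.41 ± 0.40) and the convertase inhibitor Pcsk1n (-1.25 ± 0.45), with a list median of -0.39. Without slide 4 the Pcsk1n call was lost (limma adjusted p = 0.0839). With 1 mouse left out Pcsk1n kept its call only without NOD replicate 1 or 3, Ins1 only without NOD or NOD.B10 replicate 3, Syt13 only without NOD replicate 3 or NOD.B10 replicate 6, and Rab3a only without NOD replicate 3 or 5 or NOD.B10 replicate 1. With median centring, where the tested probes had a median difference of 0.42, Ins2 and Chga stood at -0.06 and -0.07, and Ins1, Syt13, Rab3a, Pcsk2 and Pcsk1n at 0.17, -0.10, 0.08, 0.49 and 0.39.

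Further lists were built around single members. Of 23 other tetraspanins 12 were tested and 3 were lower, Tspan12 (-1.27 ± 0.22), Tspan3 (-0.68 ± 0.14) and Tspan31 (-0.57 ± 0.14), with a median of -0.26. With median centring, where the tested probes had a median difference of 0.42, the 3 stood at 0.43, 0.50 and 0.67. Of 20 genes of GABA handling only 2 were tested, and the glutamine synthetase Glul was lower (-0.92 ± 0.20) and the glutamate dehydrogenase Glud1 was not (-0.04), while no GABA transporter or GABA receptor gene of the list passed the filter. Of 26 zinc transport and storage genes 8 were tested and 2 were lower, the metallothioneins Mt1 (-1.14 ± 0.19) and Mt2 (-1.25 ± 0.34), with a median of -0.21. With median centring Glul, Mt1 and Mt2 stood at 1.33, 0.32 and 0.80. Of 6 partners and relatives of Ica1, 3 were tested and 0 were called with limma (1 lower at an unadjusted p under 0.05). The smallest p was that of the homologue Ica1l, at -0.45 ± 0.18 (limma adjusted p = 0.0667). Without slide 4 the lists on tetraspanins, GABA and zinc had 3, 1 and 2 lower genes, with 1 tetraspanin higher, and the Ica1 partners 0.

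The mitochondrial lists hold genes related to Hspd1 and Mrps31, and their shares of lower calls lay near the 18% of all genes. Of 13 mitochondrial chaperones and proteases 6 were tested and 1 was lower, Grpel1, a nucleotide exchange factor of the matrix chaperone system (-0.47 ± 0.15), which no NOD.B10 array read above background and whose call was lost without NOD replicate 1, 2 or 6 or NOD.B10 replicate 2 or 3. The list median was -0.12, and without slide 4 none was called (Grpel1 limma adjusted p = 0.127). Of 31 proteins of the small mitochondrial ribosomal subunit 16 were tested, of which 3 were lower and 1, Mrps18c, higher, with a median of -0.16. The 3 lower ones were Mrps28 (-0.59 ± 0.12), Mrps10 (-0.49 ± 0.13) and Mrps17 (-0.35 ± 0.10), with NOD.B10 above background on 2, 4 and 1 arrays, so that Mrps28 and Mrps17 are set against signals mostly at background. Mrps17 did not pass without slide 4 (limma adjusted p = 0.0893), and Mrps18c was not among the calls there. With median centring Grpel1, Mrps28, Mrps10 and Mrps17 stood at 0.41, 0.28, 0.43 and 0.25.

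**Figure D5:**
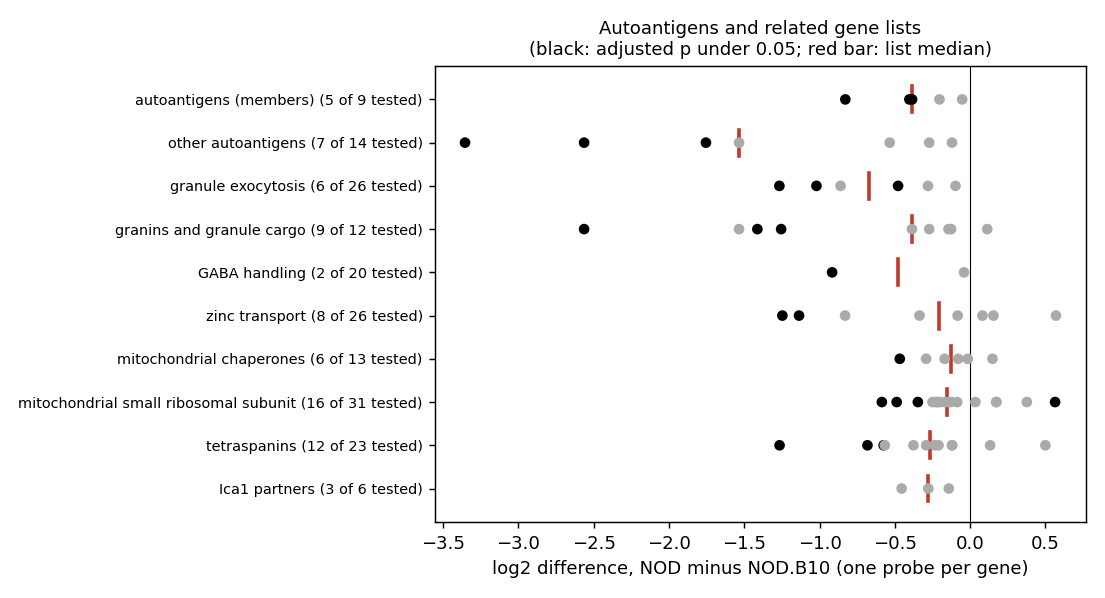
Strain difference (log2, NOD minus NOD.B10, 1 probe per gene) of each tested gene in the autoantigen list and in the related lists, black where the adjusted p is under 0.05, with list medians as red bars. The 5 tested autoantigens lie between -0.83 and -0.05, and the lowest gene of the plot is Ins2.

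Genes most like each tested member were looked for by the Pearson correlation of log2 ratios over the 12 arrays after subtraction of strain means, a description of arrays that share brightness and a reference. For Tspan7 these were the neuronal motor protein gene Kif5c (r = 0.972) and the tetraspanin Tspan3 (r = 0.915), with r = 0.975 and 0.919 over the 10 arrays without slide 4. For Hspd1 they were Cox7c, a subunit of the respiratory chain (r = 0.832), and Jade1 (r = 0.810), and for Mrps31 Vipr1, a receptor of vasoactive intestinal peptide (r = 0.879), and Rusf1 (r = 0.840). Gad1 was most like Hccs (r = 0.884) and Mrpl23 (r = 0.876), and Ica1 most like Ptpra (r = 0.888) and C1qtnf5 (r = 0.837). Among the tested members themselves the highest correlations were those of Gad1 with Hspd1 (r = 0.528) and with Tspan7 (r = 0.516), and the lowest that of Ica1 with Mrps31 (r = -0.295).

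The 5 tested members also varied within the strains. Among NOD mice the log2 ratio had an SD of 0.45 for Tspan7, against 0.19 among NOD.B10 mice, and these values were 0.34 and 0.13 for Hspd1, 0.22 and 0.12 for Ica1, 0.24 and 0.16 for Gad1, and 0.24 and 0.25 for Mrps31. These spreads were not compared by a test.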

How the data were processed

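Median Cy5 and Cy3 signals and median local backgrounds, intensity values in scanner units, were deposited per array without normalisation (per the file headers, from the scanner software Feature Extraction 10.5.1.1). Processed intensity values and their log10 ratio, in which that software had already removed background and balanced the dyes, are deposited beside quality marks per the file headers. The deposited series table holds log2 ratios whose scale and centring the labels do not state. They equal log2 of processed Cy5 over Cy3 within 0.01 for 99.7 to 99.8% of probes, with medians per array from -0.29 to -0.06.

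In limma 3.58.1 under R 4.3.3, normexp (offset 50) and then loess within arrays were applied, and unmarked spots of a probe were averaged. The offset compresses log2 ratios of dim spots, and the differences, intervals and SDs of the main fit depend on it. Per array, 160 to 250 spots carried an outlier mark and 0 were saturated. Accessions were matched to RefSeq symbols (GRCm38.p6), which named 24387 of 41174 probes. The 5347 probes with Cy5 well above background on at least 4 arrays were tested with lmFit and eBayes, with Benjamini-Hochberg adjustment over all of them. Replicate numbers did not enter the fit. Scripts were tested on simulated data.

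Genes named are all members and their probes, up to 3 called genes with the smallest p of each list (1 where none is called; 1 such gene is not reported here), the 2 most like each member, and Ins1, Ins2, Ptprc, Cpb1 and Gcg. Hspe1, Mrps18c and Glud1 were added after their values were seen. The members and lists were chosen with earlier results of these data known. Alternatives were other scalings and filters, slide, scan day, brightness and replicate terms, array weights, 1 probe per gene and leaving out each mouse.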

Additional observations from a re-analysis of the deposited data

Results flagged for a closer look

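In all 2 values stood apart among 28 groups of 6 mice (14 probes, 2 strains), where chance flags about 1 in 20. NOD.B10 replicate 2 lay apart from the 5 other NOD.B10 mice for the Gad2 probe A_51_P495462, with a log2 ratio of 0.16 against -0.16 to -0.06, but the probe was not above background in Cy5. The same mouse lay apart for the Ica1 probe A_51_P292116, with 0.62 against 0.29 to 0.41. It is 1 of the 2 arrays on slide 4, where the Ica1 reference signal was 2.64 times the mean of the other arrays. NOD.B10 replicate 3, also on slide 4, had a reference signal of 364.5 against 348 and a log2 ratio of 0.41. Net Cy5 of this probe was 18 in NOD.B10 replicate 2 and 8 to 12 in the 5 other NOD.B10 mice. The cause was not tested.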

How the results depend on the processing

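The autoantigen count of 3 lower probes became 1 without slide 4 (the second scan day), with slide as a fixed term or as a random block, with the replicate block, with no filter, with a filter of 8 arrays, with the scanner's processed ratio and with the net ratio of probes bright on all arrays. The 8-array filter and the net ratio tested only 2 of the 5 autoantigen probes, Tspan7 and Hspd1. Hspd1 was tested in both and not called, at -0.40 (limma adjusted p = 0.0579) and -0.03 (limma adjusted p = 0.934). With no filter the Hspd1 and Mrps31 differences stayed at -0.40 and -0.39 while 41174 probes entered the adjustment. With Cy5 alone 2 probes were lower, but these were Tspan7 and Ica1. Hspd1 (0.066) and Mrps31 (0.029) were not called there. The count became 0 within slide 2, within slide 3, with the share of bright spots as a covariate and with median centring (0, 1, 1 and 0 lower at an unadjusted p under 0.05), the last with 1 higher. The share of bright spots does not overlap between the strains. Leaving out 1 mouse gave 1 to 3 lower probes and 0 higher. Hspd1 lost its call without NOD replicate 1, 2 or 4 or NOD.B10 replicate 1, 2, 3, 4 or 5, and Mrps31 without NOD replicate 1, 2, 4 or 6 or NOD.B10 replicate 1, 2, 3 or 5 (adjusted p up to 0.0992 and 0.102). Tspan7 kept its call without any 1 mouse, from -0.98 to -0.73. The median difference of the tested probes was 0.42 with median centring, 0.55 with processed ratios, 0.10 with Cy5 alone and -0.36 with the net ratio.

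Over all probes, 1071 were higher and 876 lower. Median centring gave 2568 and 1 (4 lower at an unadjusted p under 0.05), slide as a fixed term 508 and 429, slide 2 alone 43 and 56, slide 3 alone 2 and 1, the brightness covariate 5 and 0 (177 lower at an unadjusted p under 0.05), the 8-array filter 432 and 489 of 2561, and the net ratio 177 and 377 of 1078. Lower calls were 410 with processed ratios, 341 with Cy5 alone and 1674 with no filter. Leaving out 1 mouse gave 873 to 1219 higher and 713 to 1020 lower.

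Median centring set the median of all probes on each array to 0, while the tested probes, filtered on Cy5, had the median difference of 0.42 above. Relative to that median Gad1 (-0.20), Tspan7 (-0.33), Ica1 (-0.12) and Mrps31 (-0.37) were negative and Hspd1 (0.53) was positive. The change was not common to all probes, as Hspd1 went from -0.40 to 0.95 and Ptprc from 4.09 to 3.40. Without that median subtracted, signs turned for Gad1 (0.22), Tspan7 (0.10), Ica1 (0.31), Hspd1 (0.95), Mrps31 (0.050), Glul (1.33), Pcsk2 (0.49), Pcsk1n (0.39), Rab3a (0.081), Ica1l (0.10), Grpel1 (0.41), Mrps28 (0.28), Mrps10 (0.43), Mrps17 (0.255), Ins1 (0.17), Tspan12 (0.43), Tspan3 (0.50), Tspan31 (0.67), Mt1 (0.32), Mt2 (0.80) and Gcg (1.21). They turned with Cy5 alone for Hspd1 (0.066), Mrps31 (0.029), Grpel1 (0.089), Mrps10 (0.0039) and Gcg (1.07), and with processed ratios for Mrps31 (0.13), Grpel1 (0.57), Mrps10 (0.19) and Mrps17 (0.56). With the brightness covariate they turned for Gad1 (0.12), Grpel1 (0.29), Rab3a (0.048) and Gcg (0.60), within slide 2 for Rab3a (0.0035), within slide 3 for Hspe1 (-0.16) and without NOD replicate 4 for Gad1 (from -0.13 to 0.021 with 1 mouse left out). The causes were not tested.

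The labels do not say that replicate numbers pair the mice. Deviations of same-numbered mice correlated from -0.155 to 0.230 over tested probes, and 1 of 6 NOD mice correlated best with its own number. Same-numbered replicates 4, 5 and 6 shared a slide, so these correlations cannot exclude a pairing. With the replicate block Tspan7 stayed at -0.83 (adjusted p = 0.0104), and Hspd1 and Mrps31 had adjusted p of 0.0781 and 0.0622.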

Other observations

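The common reference was not alike on all slides. Over 16345 probes read in Cy3 on every array, the 2 arrays of slide 4 were both outside the range of the 10 others for 41.6%, although their median ratio to the others was 0.974. Slides 1, 2 and 3 had 18, 0 and 1 probes at least 2-fold above the other arrays and 115, 251 and 127 at most 0.5 of them, and slide 4 had 1076 and 1590. Among the 8 autoantigen probes above background in Cy3 on every array, slide 4 read 2.64 times the others for Ica1 A_51_P292116, 1.47 times for Gad1 A_52_P144310, 0.63 times for Mrps31, 0.244 times for Hspd1 A_52_P1172972, 0.991 times for Hspd1 A_51_P282706, 0.897 times for Gad1 A_51_P282538, 0.882 times for Tspan7 and 0.846 times for Gad2 A_51_P495462.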
